A study of Homo sapiens with 6 samples.

Results

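Death receptors are cell-surface proteins of the TNF receptor superfamily that start apoptosis from outside the cell. The 9 genes described here are the TRAIL ligand gene TNFSF10, the receptor genes FAS, TNFRSF10A, TNFRSF10B, TNFRSF10C, TNFRSF10D and TNFRSF1A, the adaptor gene FADD and the inhibitor gene CFLAR. They were measured through the 141 probe sets, out of 1411399 on the array, whose only annotated gene symbol was one of the 9. Of these, 127 probe sets lay above the filter on low values, and all 9 genes were among the 17841 genes tested.

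When a ligand binds, the death domain of FAS or of the TRAIL receptors TNFRSF10A (DR4) and TNFRSF10B (DR5) recruits FADD, which in turn recruits caspase-8 and caspase-10 into the death-inducing signalling complex (DISC). TNFRSF10C and TNFRSF10D also bind TRAIL but lack a working death domain, so they are known as decoy receptors, and c-FLIP, the product of CFLAR, competes with caspase-8 in the complex. FAS and TNFRSF10B are textbook transcriptional targets of p53, and TNFRSF10A, TNFRSF10C and TNFRSF10D are also described as p53-responsive.

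RNA came from HCT116, an established colorectal carcinoma line given in the sample titles as HCT116 +/+, at 12 h. In 2 control samples the labels give the treatment as none while the design text of the series names DMSO, 2 samples had received Nutlin-3 (Nutlin 3R in the labels), an inhibitor of the MDM2-p53 interaction, and 2 had received 5FU (5-fluorouracil), a pyrimidine analogue. The sources used here state no dose. No label says that replicates were separate cultures, so the p-values reflect just how far these samples vary, and that variation may be technical. Each sample was hybridised to 1 Human Exon 1.0 ST array, whose probe sets cover single exons or parts of them.

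All values are log2 expression values, and a gene's value is the mean over its probe sets above the filter of 4.73, the median of all probe-set means. Values are compared between arrays only, since a probe set's level also depends on its probes, and in bulk RNA fewer cells with a transcript and less of it per cell cannot be told apart. A difference of 1 on this scale is a 2-fold change. The arrays had medians of 4.73 to 4.78 and correlated pairwise at 0.92 to 0.981 across genes, which are not independent replicates. The residual SD had a median of 0.161 over genes. The number of arrays limits the precision, since an exact two-sided permutation test of 2 arrays against 2 cannot go below 0.333. CDKN1A and MDM2, used as a check that the drugs acted, rose 4.27-fold and 3.63-fold after Nutlin-3 (limma, Benjamini-Hochberg adjusted p = 0.00308 and 0.0099) and 3.43-fold and 2.96-fold after 5FU (adjusted p = 0.00751 and 0.0283). As a mean over all their probe sets, 9 of 10 epithelial markers lay above the filter (EPCAM 9.07, KRT8 11.2, VIL1 4.93, but KRT20 4.66). So did 6 of 11 fibroblast and muscle markers (COL1A1 7.23, but LUM 3.11 and FAP 3.11). The same held for 5 of the 9 blood markers in the annotation (NKG7 6.59, but PTPRC 3.30) and 2 of 5 endothelial markers. Such counts do not show that a cell type was present, since 269135 of the 357604 probe sets with 1 symbol lay above the filter. ACTA2, among the fibroblast and muscle markers, itself rose after both drugs, as given below. The samples are of an established line, and the source of the non-epithelial marker values was not tested. The medians of the epithelial, fibroblast, blood and endothelial marker lists ranged over the 6 arrays from 7.46 to 7.76, 5.28 to 5.48, 4.86 to 5.19 and 4.41 to 4.70.

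The sequences upstream of 2 members, FAS and TNFSF10, are shown. They were searched for motifs, among them that of p53, the factor that MDM2 holds in check. RefSeq (GRCh38.p14) promoter windows were matched for 5 of the 9 genes, FAS, CFLAR, FADD, TNFRSF1A and TNFSF10, with 10 annotated starts in all, and the 250 bases before each start were searched on both strands. The p53 half-site consensus was present in 1 of the 10 windows, that before the third start of FAS, and in 5.57% of all 35116 windows of the same length. CFLAR, FADD, TNFRSF1A and TNFSF10 thus had no match, and TNFRSF10A to TNFRSF10D had no window to search. In that window (chr10:88991181-88991430, plus strand) the capitals mark the match, which begins 511 bases downstream of the first FAS start. The window of the first FAS start (chr10:88990548-88990797, plus strand) has no match. In the window of TNFSF10 (chr3:172523431-172523680, minus strand) the capitals mark TATAAA, which 1 of the 10 windows and 10.7% of all windows contained.
FAS start 1: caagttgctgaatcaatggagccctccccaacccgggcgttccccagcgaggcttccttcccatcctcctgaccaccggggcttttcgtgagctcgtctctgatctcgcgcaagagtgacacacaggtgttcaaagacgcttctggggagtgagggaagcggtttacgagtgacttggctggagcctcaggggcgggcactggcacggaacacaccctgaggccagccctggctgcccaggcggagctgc
FAS start 3: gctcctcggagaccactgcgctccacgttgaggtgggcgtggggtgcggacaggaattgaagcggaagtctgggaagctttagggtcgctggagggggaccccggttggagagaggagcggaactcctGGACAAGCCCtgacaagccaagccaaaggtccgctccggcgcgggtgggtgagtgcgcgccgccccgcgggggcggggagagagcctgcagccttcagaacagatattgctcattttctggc
TNFSF10: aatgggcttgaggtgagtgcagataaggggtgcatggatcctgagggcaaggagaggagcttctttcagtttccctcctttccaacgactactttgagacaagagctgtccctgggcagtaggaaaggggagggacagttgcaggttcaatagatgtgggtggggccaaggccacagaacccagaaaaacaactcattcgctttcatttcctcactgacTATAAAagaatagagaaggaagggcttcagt
The p53 half-site is a palindrome, so its matches on both strands are the same bases. The GC box GGGCGG was found in 6 of the 10 windows and 42.6% of all windows, and the NF-kappaB consensus in 3 of the 10 and 19.0% of all; some of these matches overlapped each other. A match shows only that these letters are present, and a link to expression was not tested.

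The first comparison asked which members Nutlin-3 changed. FAS, TNFRSF10B and the decoy gene TNFRSF10C were called higher, 3 of the 9 members, against 0.359% of all genes called higher, 0.858% called lower and 1.22% called in either direction. The median log2 difference of the members was 0.55, against 0.00062 over all genes. Both Nutlin-3 arrays lay above both controls for 6 of the 9 members, where this held for 16.2% of all genes. Both lay below for 1 member, FADD, where this held for 18% of all genes.

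The second comparison asked the same of 5FU. FAS, TNFRSF10B and the other decoy gene, TNFRSF10D, were called higher, again 3 of 9, against 0.331% of all genes called higher and 0.448% called in either direction. The median log2 difference of the members was 0.85, against 0.00143 over all genes. Both 5FU arrays lay above both controls for 7 members (20% of all genes) and below for FADD (18% of all genes). The controls are the same 2 arrays in both comparisons.

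**Figure D1:**
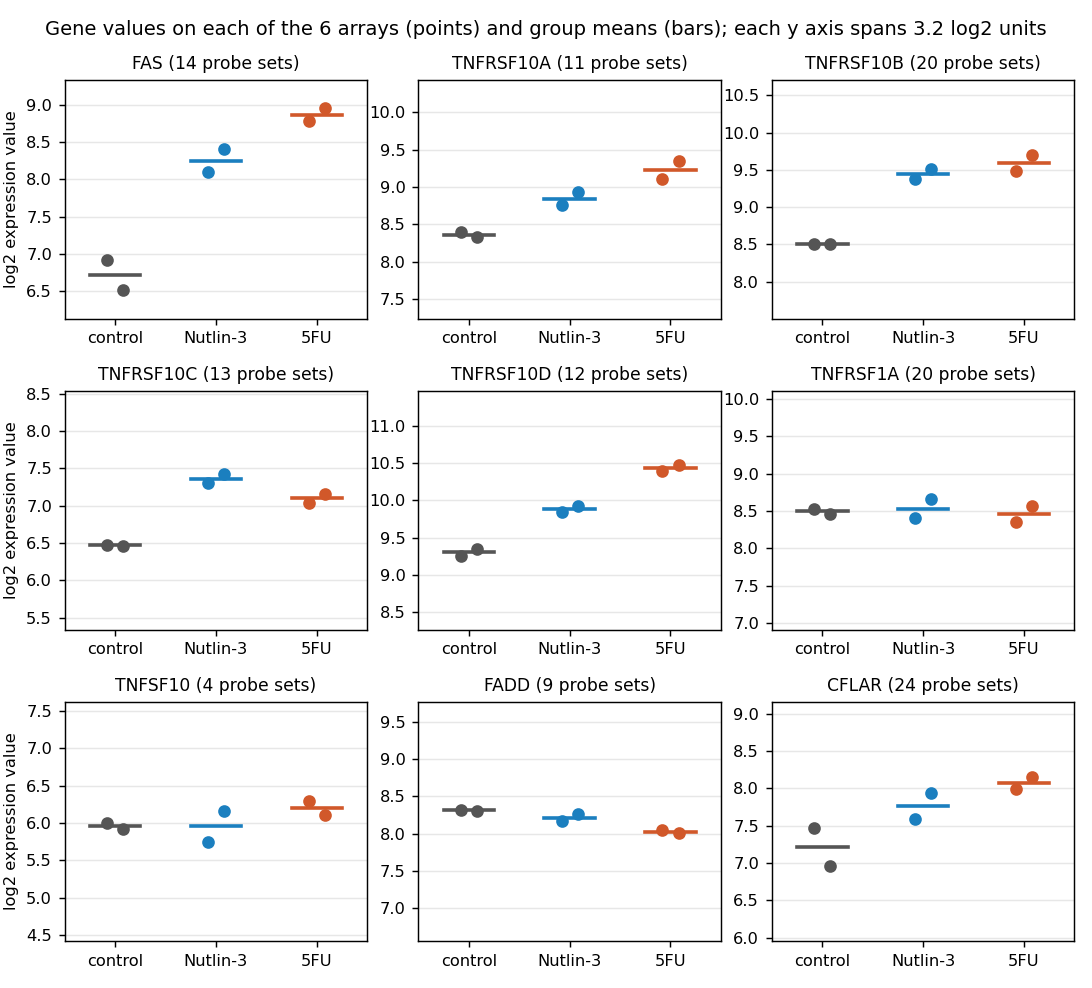
Log2 expression value of each of the 9 genes (y axis, each spanning the same number of log2 units around its own range) on the 6 arrays (points), by group (x axis), with the group mean as a bar. FAS is lowest in the controls (6.92 and 6.52) and highest after 5FU (8.78 and 8.95), while the points of TNFRSF1A overlap between groups.

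The ligand gene TNFSF10 encodes TRAIL, which binds TNFRSF10A to TNFRSF10D. Only 4 of its 12 probe sets lay above the filter, so the gene's value rests on a minority of its probe sets. It was 6.002 and 5.93 in control, 5.75 and 6.16 after Nutlin-3 and 6.29 and 6.11 after 5FU. The Nutlin-3 arrays lay on either side of the controls and the 5FU arrays lay slightly above them. The log2 difference was -0.01 (95% interval -0.41 to 0.40) for Nutlin-3 and 0.24 (-0.17 to 0.64) for 5FU, neither of which passed the test (limma, adjusted p = 0.996 and 0.76). The 8 probe sets below the filter had a median difference of 0.08 after Nutlin-3 and -0.10 after 5FU.

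FAS encodes the receptor of FAS ligand. It was 6.92 and 6.52 in control, 8.09 and 8.40 after Nutlin-3 and 8.78 and 8.95 after 5FU. The 3 groups did not overlap, and the gap between the 2 controls, 0.40, was the second largest among the members. The change was 2.89-fold after Nutlin-3 (log2 difference 1.53, SE 0.19, 95% interval 1.08 to 1.98, limma adjusted p = 0.0183) and 4.43-fold after 5FU (2.15, SE 0.19, 1.70 to 2.59, adjusted p = 0.0197). In order of log2 difference FAS was number 18 of 17841 genes for Nutlin-3 and number 5 for 5FU.

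The rise of FAS ran through most of the gene's probe sets. Of the 14 above the filter, 13 were higher on both drug arrays than on both controls, for Nutlin-3 (16.8% of all such probe sets) and for 5FU (19.3%). At least 2-fold higher were 12 of the 14 after either drug, against 1.21% and 2.32% of all such probe sets, and 3 of the 14 after 5FU in comparison with Nutlin-3, against 4.23%. Probe set 3257122 had the largest difference, 3.03 after Nutlin-3 and 3.93 after 5FU, from controls of 4.21 and 2.91 that lay below the filter, so its size is less certain. Probe set 3257118 went from 5.17 and 4.98 in control to 6.44 and 7.57 after Nutlin-3 and 8.39 and 8.64 after 5FU. At the other end, 3257099 differed by -0.01 and -0.19 and 3257104 by 0.11 and 0.21, after Nutlin-3 and 5FU. Signal in these 2 probe sets thus stayed near control while the other 12 differed by at least 1.11. The 1 probe set annotated to both FAS and STAMBPL1 was not used and lay below the filter on each array (2.95 to 3.79).

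FAS shares its locus with ACTA2, the smooth muscle actin gene, which overlaps it in the RefSeq gene table together with FAS-AS1. ACTA2 was 6.48 and 6.67 in control, 8.17 and 8.35 after Nutlin-3 and 7.74 and 8.06 after 5FU. It rose after both drugs (log2 difference 1.68, limma adjusted p = 0.0099, and 1.33, adjusted p = 0.0315), and its Nutlin-3 arrays lay above its 5FU arrays where for FAS they lay below. Whether overlapping transcripts share signal was not tested. On the other side CH25H differed by -0.03 and -0.08, and neither difference passed the test (adjusted p = 0.983 and 0.966). Among the annotated neighbours of the other members that are not members themselves, 0 were called, and the largest difference from control was that of NCEH1, beside TNFSF10, after 5FU (1.05, limma adjusted p = 0.116).

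TNFRSF10B encodes the TRAIL receptor DR5, which carries a death domain. It was 8.51 on both controls, 9.38 and 9.52 after Nutlin-3 and 9.48 and 9.70 after 5FU. Both drug groups lay well above the controls and overlapped each other. The change was 1.91-fold after Nutlin-3 (log2 difference 0.94, SE 0.14, 95% interval 0.60 to 1.27, limma adjusted p = 0.0338) and 2.12-fold after 5FU (1.08, SE 0.14, 0.74 to 1.42, adjusted p = 0.0388). All 20 probe sets of the gene lay above the filter, 19 of them higher on both Nutlin-3 arrays (16.8% of all used probe sets) and 20 on both 5FU arrays (19.3%) than on both controls. Their differences ran from 0.05 to 1.40 after Nutlin-3 and from 0.26 to 1.73 after 5FU, with 3127726 the lowest for both drugs, 3127714 the highest for Nutlin-3 and 3127722 the highest for 5FU. RHOBTB2, which overlaps TNFRSF10B in the RefSeq table, differed by -0.09 and 0.27 and was not called (adjusted p = 0.916 and 0.529).

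TNFRSF10A encodes DR4, the other TRAIL receptor with a death domain. It was 8.39 and 8.33 in control, 8.76 and 8.93 after Nutlin-3 and 9.11 and 9.34 after 5FU, so that the 3 groups did not overlap. Neither drug passed the test (log2 difference 0.48, 95% interval 0.14 to 0.83, limma adjusted p = 0.272, for Nutlin-3 and 0.87, 0.52 to 1.21, adjusted p = 0.0811, for 5FU). With only the probe sets above the upper quartile of all probe-set means the 5FU difference was 0.96 and passed (adjusted p = 0.0401). All 11 probe sets lay above the filter and had differences above 0 for both drugs, from 0.05 to 0.75 after Nutlin-3 and from 0.30 to 1.41 after 5FU. The smallest difference was in 3127796 for both drugs, and the largest was in 3127784 for Nutlin-3 and 3127788 for 5FU.

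TNFRSF1A encodes TNF receptor 1, whose death domain binds TRADD rather than FADD. It was 8.53 and 8.47 in control, 8.40 and 8.66 after Nutlin-3 and 8.36 and 8.58 after 5FU, and the drug arrays lay on either side of the controls. The log2 difference was 0.03 for Nutlin-3 (95% interval -0.33 to 0.40, limma adjusted p = 0.981) and -0.03 for 5FU (-0.40 to 0.33, adjusted p = 0.984). Of its 20 probe sets, 2 were higher and 1 lower on both Nutlin-3 arrays than on both controls (16.8% and 18.4% of all used probe sets), and 1 was higher and 3 lower on both 5FU arrays (19.3% each). The extremes were 3441857 at -0.36 and 3441859 at 0.32 for Nutlin-3, and the same probe sets at -0.54 and 0.55 for 5FU.

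Each decoy gene was called for 1 of the drugs, TNFRSF10C for Nutlin-3 and TNFRSF10D for 5FU, but lay above both controls on every array of either drug. Neither passed the test between the drugs given further on. TNFRSF10C encodes a TRAIL receptor anchored by a glycolipid, without a death domain. It was 6.48 and 6.45 in control, 7.30 and 7.42 after Nutlin-3 and 7.04 and 7.16 after 5FU, so that no groups overlapped and the Nutlin-3 arrays were highest. The change was 1.86-fold after Nutlin-3 (log2 difference 0.90, SE 0.13, 95% interval 0.59 to 1.21, limma adjusted p = 0.0296). After 5FU the difference was 0.63 (0.32 to 0.94), which did not pass (adjusted p = 0.134).

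TNFRSF10D encodes a decoy receptor with a truncated death domain. It was 9.26 and 9.35 in control, 9.85 and 9.92 after Nutlin-3 and 10.39 and 10.47 after 5FU, again with no overlap but with the 5FU arrays highest. The change after 5FU was 2.18-fold (log2 difference 1.12, SE 0.13, 95% interval 0.82 to 1.43, limma adjusted p = 0.0283). After Nutlin-3 the difference was 0.58 (0.28 to 0.89), which did not pass (adjusted p = 0.113). TNFRSF10D minus TNFRSF10C within an array, a quantity that can only be compared between arrays, was 2.78 and 2.90 in control, 2.54 and 2.50 after Nutlin-3 and 3.35 and 3.31 after 5FU. It was thus lower than control on both Nutlin-3 arrays and higher on both 5FU arrays, a description with no test. Both results depend on which probe sets of TNFRSF10C are taken. For 5FU, 7 of them, described next, had a median difference of 1.26, and the median over the probe sets of TNFRSF10D was also 1.26. For Nutlin-3, the other 9 had a median difference of 0.21, beside a median of 0.62 for TNFRSF10D.

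The decoy genes also differed in how evenly their probe sets moved. In TNFRSF10D all 12 probe sets had differences above 0 for both drugs, from 0.28 (3127749) to 0.92 (3127754) after Nutlin-3 and from 0.06 (3127762) to 1.52 (3127754) after 5FU. In TNFRSF10C, 13 of 16 probe sets lay above the filter, and their differences ran from -0.15 (3089806) to 3.76 (3089826) after Nutlin-3 and from -0.23 (3089837) to 2.66 (3089826) after 5FU. Probe set 3089826 went from 4.32 and 3.21 in control to 7.15 and 7.88 after Nutlin-3 and 6.05 and 6.81 after 5FU. Its controls lay below the filter, so the size of its rise is less certain.

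In the order of the platform's probe set numbers, the large Nutlin-3 differences of TNFRSF10C lay next to each other. The 7 probe sets from 3089818 to 3089827, a stretch picked after the values were seen, had differences of 0.89 to 3.76 after Nutlin-3 and 0.50 to 2.66 after 5FU, and each was higher on both arrays of either drug than on both controls. Over the other 9 probe sets the differences ran from -0.51 to 0.45 and from -0.23 to 0.99. The separation was complete for Nutlin-3 but not for 5FU, where 3089809, outside the stretch, differed by 0.99, more than 3089818 (0.50) and 3089827 (0.90) inside it. Of the 7 probe sets, 5 lay above the filter and entered the gene's mean. No exon annotation was used here, and the probe sets' transcripts were not identified. LOC254896 overlaps TNFRSF10C in the RefSeq table, and its part in the values was not tested.

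**Figure D2:**
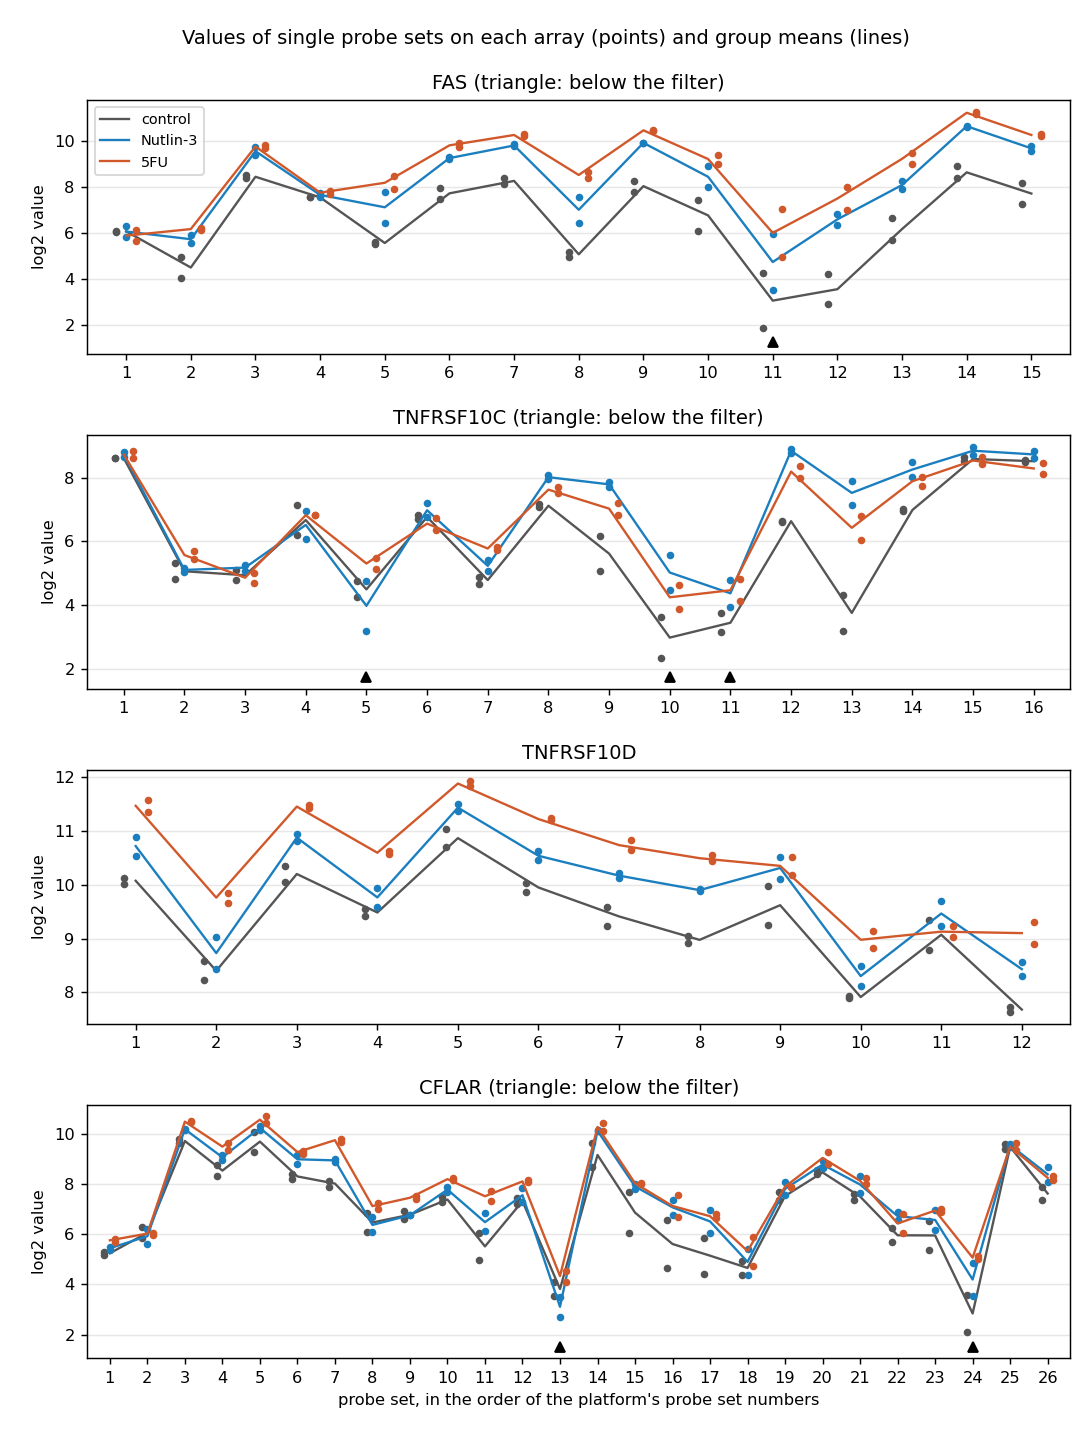
Log2 values of single probe sets of FAS, TNFRSF10C, TNFRSF10D and CFLAR (x axis, in the order of the platform's probe set numbers) on each array (points) and as group means (lines); triangles mark probe sets below the filter. In TNFRSF10C both drug lines lie above the control line from number 8 to number 14, by up to 3.76 for Nutlin-3, and in TNFRSF10D the 5FU line lies above the Nutlin-3 line at 11 of the 12 probe sets.

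FADD encodes the adaptor that joins the receptors to caspase-8. It was 8.32 and 8.31 in control, 8.17 and 8.26 after Nutlin-3 and 8.04 and 8.01 after 5FU, which places each drug group below the controls by a small amount. The log2 difference was -0.10 for Nutlin-3 (95% interval -0.40 to 0.20, limma adjusted p = 0.898) and -0.29 for 5FU (-0.59 to 0.01, adjusted p = 0.487), so neither passed. Of its 9 probe sets, all above the filter, 4 were lower on both 5FU arrays than on both controls and 0 were higher (19.3% each of all used probe sets). The 5FU differences ran from -0.65 (3338433) to 0.06 (3338428) and the Nutlin-3 differences from -0.33 (3338435) to 0.25 (3338426).

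CFLAR encodes c-FLIP. It was 7.47 and 6.97 in control, 7.60 and 7.93 after Nutlin-3 and 7.997 and 8.15 after 5FU. The groups did not overlap, but the controls were 0.50 apart, the widest control gap among the members, and control replicate 1 was the higher on 20 of the 26 probe sets. Neither drug passed the test, with a log2 difference of 0.55 for Nutlin-3 (95% interval 0.06 to 1.04, limma adjusted p = 0.419) and 0.85 for 5FU (0.36 to 1.34, adjusted p = 0.195). Without control replicate 1 the differences were 0.80 and 1.11, and without control replicate 2 they were 0.29 and 0.60. The Nutlin-3 difference thus depends strongly on which control is kept.

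Among the 24 probe sets of CFLAR above the filter, 16 were higher on both Nutlin-3 arrays (16.8% of all used probe sets) and 20 on both 5FU arrays (19.3%) than on both controls, and 0 were lower. Differences ran from -0.14 (2522621) to 1.47 (2522653) after Nutlin-3 and from -0.03 (2522621) to 2.00 (2522642) after 5FU. For 2522653 the controls were 6.56 and 4.68, so that 1 control lay close to the Nutlin-3 arrays (6.79 and 7.37). Probe set 2522638 had close controls, 8.15 and 7.91, and went to 8.90 and 9.02 after Nutlin-3 and 9.82 and 9.71 after 5FU.

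**Figure D3:**
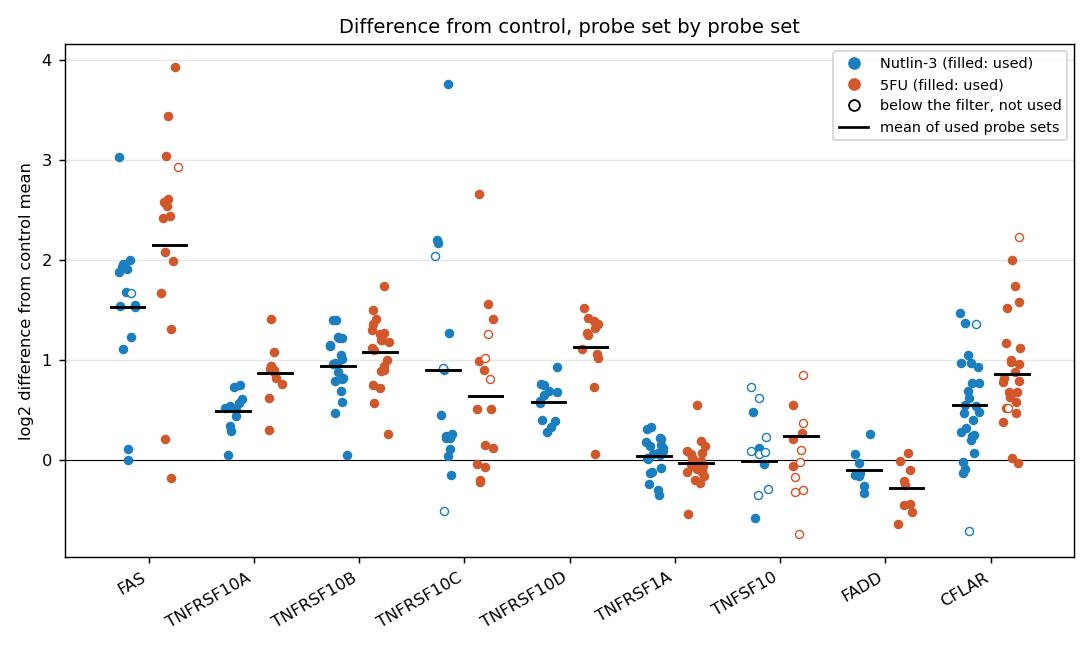
Log2 difference from the control mean (y axis) for each probe set of the 9 genes (x axis), in blue for Nutlin-3 and orange for 5FU; open points lay below the filter and black bars are means over the used probe sets. The points of TNFRSF10B and TNFRSF10A lie above 0 throughout, those of TNFRSF1A scatter around 0, and TNFRSF10C has the widest spread after Nutlin-3, up to 3.76.

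Over all members, 78 of the 127 used probe sets (61.4%) were higher on both Nutlin-3 arrays than on both controls, where this held for 16.8% of all used probe sets with 1 symbol. For 5FU it was 84 (66.1%, against 19.3%). Lower on both arrays were 4 (against 18.4%) and 8 (against 19.3%). Probe sets of 1 gene share its transcripts and are not independent. Limma across 705699 probe sets called 0 of the 127 for Nutlin-3 and 0 for 5FU (0% of all), with 50 and 69 at an unadjusted p below 0.05 (6.14% and 6.27% of all). With trend and robust variances it called 16 for Nutlin-3, 7 of them in FAS, 6 in TNFRSF10B and 3 in TNFRSF10C, against 0.382% of all probe sets. For 5FU that fit called 20, of which 9 were in FAS, 5 in TNFRSF10D, 4 in TNFRSF10B, 1 in TNFRSF10C and 1 in CFLAR, against 0.117% of all.

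The third comparison set 5FU directly against Nutlin-3. By limma 0 of the 9 members passed the test, against 0.633% of all genes called in either direction, and 3 members, FAS, TNFRSF10A and TNFRSF10D, had an unadjusted p below 0.05, as did 2377 of all genes. On the log2 scale FAS was higher after 5FU by 0.62 (95% interval 0.17 to 1.06, adjusted p = 0.236), TNFRSF10D by 0.54 (0.24 to 0.85, adjusted p = 0.144), TNFRSF10A by 0.38 (0.04 to 0.73, adjusted p = 0.328) and CFLAR by 0.31 (-0.18 to 0.80, adjusted p = 0.583). TNFRSF10C was lower after 5FU, by -0.26 (-0.57 to 0.05, adjusted p = 0.457), as was FADD, by -0.19 (-0.49 to 0.11, adjusted p = 0.58).

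For TNFRSF10B the difference between drugs was 0.14 (95% interval -0.19 to 0.48, limma adjusted p = 0.713), for TNFSF10 0.25 (-0.16 to 0.65, adjusted p = 0.597) and for TNFRSF1A -0.07 (-0.43 to 0.30, adjusted p = 0.882). Each of these intervals spans 0, as do those of CFLAR, TNFRSF10C and FADD above, so no difference was detected in either direction for any of these genes. Both 5FU arrays lay above both Nutlin-3 arrays for 4 members, FAS, TNFRSF10A, TNFRSF10D and CFLAR (25.2% of all genes), and below for TNFRSF10C and FADD (20.8% of all genes). Among the probe sets, 5FU was higher on both arrays in 11 of 14 for FAS, 9 of 11 for TNFRSF10A, 10 of 12 for TNFRSF10D and 12 of 24 for CFLAR (22.5% of all used probe sets), and lower in 8 of 13 for TNFRSF10C (20.3%). Limma called 0 of the 127 member probe sets between the drugs, against 0.00142% of all (0 with trend and robust variances, against 0.228%), and 17 had an unadjusted p below 0.05, against 7.39% of all.

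**Figure D4:**
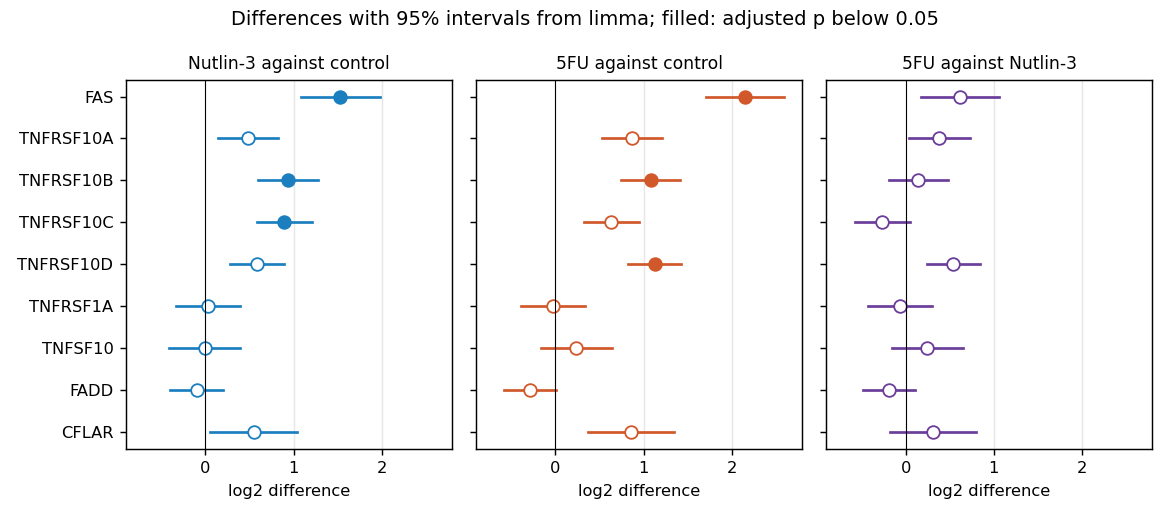
Log2 differences (x axis) of the 9 genes (rows) in the 3 comparisons with 95% intervals from limma; filled points had an adjusted p below 0.05. The filled points are FAS, TNFRSF10B and TNFRSF10C for Nutlin-3 and FAS, TNFRSF10B and TNFRSF10D for 5FU, and no point is filled for 5FU against Nutlin-3.

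Each call was lost when any 1 array of the 2 groups compared was left out. Such a fit has 1 array left in a group and fewer residual degrees of freedom. A lost call therefore does not mark out the array left out. Without any 1 of control replicate 1, control replicate 2, Nutlin-3 replicate 1 or Nutlin-3 replicate 2, FAS, TNFRSF10B and TNFRSF10C were no longer called for Nutlin-3, although their log2 differences stayed within 1.33 to 1.73, 0.87 to 1.01 and 0.84 to 0.95. Without 5FU replicate 1 or 5FU replicate 2, TNFRSF10B (limma adjusted p = 0.0609) and TNFRSF10C (adjusted p = 0.0687) were not called for Nutlin-3, while FAS was (adjusted p = 0.0293). For 5FU the calls of FAS, TNFRSF10B and TNFRSF10D were lost without any 1 control or 5FU array, with log2 differences of 1.95 to 2.35, 0.97 to 1.19 and 1.08 to 1.17, and that of TNFRSF10B also without either Nutlin-3 array (adjusted p = 0.0561). With each array centred on its own median, TNFRSF10B (adjusted p = 0.06) and TNFRSF10C (adjusted p = 0.0525) were not called for Nutlin-3, nor TNFRSF10B (adjusted p = 0.0647) and TNFRSF10D (adjusted p = 0.0533) for 5FU. With the median over probe sets in place of the mean, FAS after Nutlin-3 was 1.18 (adjusted p = 0.234) and TNFRSF10C was 1.07 (adjusted p = 0.0661), and FAS (2.13, adjusted p = 0.059), TNFRSF10B (1.06, adjusted p = 0.0772) and TNFRSF10D (1.17, adjusted p = 0.0515) were not called for 5FU. That median is of levels on each array, so the probe set behind it can differ between arrays. The median of the used probe sets' own Nutlin-3 differences was 1.61 for FAS and 0.26 for TNFRSF10C.

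Several genes had profiles over the 6 arrays close to those of the receptors. By the root mean square difference between control-centred profiles, the 5 genes nearest to FAS were TLR3, a sensor of double-stranded RNA (0.0882), the glycosyltransferase GALNT5 (0.235), SESN1 (0.272), the 14-3-3 protein SFN (0.307) and AKR1B10 (0.318). TLR3 differed from control by 1.63 after Nutlin-3 and 2.16 after 5FU on the log2 scale, beside 1.53 and 2.15 for FAS. The 5 nearest to TNFRSF10B were the DNA repair gene DDB2 (0.0893), KRT15 (0.0977), EFNB1 (0.0988), the laminin subunit gene LAMA3 (0.099) and the kinase gene PLK3 (0.103). These are likenesses over 6 arrays and carry no test.

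Beyond the members, 6 lists of other genes of the pathway were read from the same fit, 64 genes in all, of which 61 were measured. For Nutlin-3, 0 of the 61 were called by limma, against 1.22% of all genes and 1821 genes at an unadjusted p below 0.05. For 5FU 2 were called higher, BIRC3 and APAF1, and 0 lower, against 0.331% and 0.118% of all genes. Between the drugs 1 was higher after 5FU, TNFAIP3, and 0 were lower, against 0.572% and 0.0617%. Of the genes named from these lists, BIRC3, APAF1 and TNFAIP3 are the called ones, and the others were picked after their values were seen.

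Of 13 other death ligands and TNF-family receptors measured, 0 were called in any of the 3 comparisons, with median log2 differences of 0.07 for Nutlin-3 and 0.02 for 5FU. FASLG, the ligand of FAS, differed by 0.21 and 0.07 and TNF, the ligand of TNFRSF1A, by -0.04 and 0.01. TNFRSF25, which encodes the death receptor DR3, had the largest difference of the list, 0.38 after 5FU (95% interval 0.01 to 0.75, limma adjusted p = 0.444). EDA2R, a receptor known as a p53 target, differed by 0.29 (95% interval -0.04 to 0.62, limma adjusted p = 0.571) and 0.12.

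Among DISC partners and caspases 0 of 11 were called in any of the 3 comparisons, with medians of -0.07 for Nutlin-3 and 0.11 for 5FU. CASP8, the initiator caspase of the complex, was 7.42 and 7.02 in control, 7.51 and 7.54 after Nutlin-3 and 7.83 and 7.94 after 5FU, which is a log2 difference of 0.31 (95% interval -0.08 to 0.70, limma adjusted p = 0.651) and 0.66 (0.27 to 1.06, adjusted p = 0.208). Its groups did not overlap, and as for CFLAR its control replicate 2 was the lower. CASP10, the neighbour of CFLAR, differed by 0.04 and 0.32, and TRADD, the adaptor of TNFRSF1A, by 0.30 and -0.02.

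The inhibitors and ubiquitin-editing genes held the largest 5FU response of the lists outside the mitochondrial arm. BIRC3, which encodes cIAP2, was 5.81 and 5.97 in control, 6.24 and 6.62 after Nutlin-3 and 7.37 and 7.71 after 5FU, a 3.14-fold rise for 5FU (limma adjusted p = 0.0283). TNFAIP3, which encodes the ubiquitin-editing enzyme A20, was 6.02 and 5.78 in control, 5.87 and 5.81 after Nutlin-3 and 6.75 and 6.95 after 5FU. On the log2 scale it was higher after 5FU than after Nutlin-3 by 1.01 (95% interval 0.66 to 1.37, adjusted p = 0.0462), while its 5FU difference from control of 0.95 did not pass (adjusted p = 0.0687). The list's medians over 15 genes were 0.03 for Nutlin-3 and -0.04 for 5FU, with members on both sides of 0. Both 5FU arrays lay above both controls for 6 of the 15 (20% of all genes) and below for 3 (18% of all genes). Among those not called, TNIP1, which encodes a partner of A20, differed after 5FU by 0.69 (95% interval 0.35 to 1.03, limma adjusted p = 0.133). BIRC2, which encodes cIAP1, differed by 0.49 (-0.14 to 1.11, adjusted p = 0.622) and the deubiquitinase gene CYLD by 0.48 (-0.02 to 0.98, adjusted p = 0.497). The largest falls of the list after 5FU, also not called, were those of ITCH (-0.32, adjusted p = 0.756) and RNF31 (-0.25, adjusted p = 0.56).

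In the mitochondrial arm, which amplifies the death receptor signal, APAF1, the scaffold of the apoptosome, was 6.79 and 6.61 in control, 7.55 and 8.06 after Nutlin-3 and 8.24 and 8.55 after 5FU. It rose 3.24-fold after 5FU (limma adjusted p = 0.0295), and its Nutlin-3 difference of 1.10 did not pass (adjusted p = 0.0673). PMAIP1, which encodes NOXA, differed by 0.09 after Nutlin-3 and 1.23 after 5FU (adjusted p = 0.962 and 0.107). The medians over the 9 genes were 0.25 and 0.32. The 3 necroptosis genes had medians of 0.08 and -0.14 and the 10 genes of receptor glycosylation and trafficking had medians of 0.004 and 0.01, with 0 called in any of the 3 comparisons in either list.

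**Figure D5:**
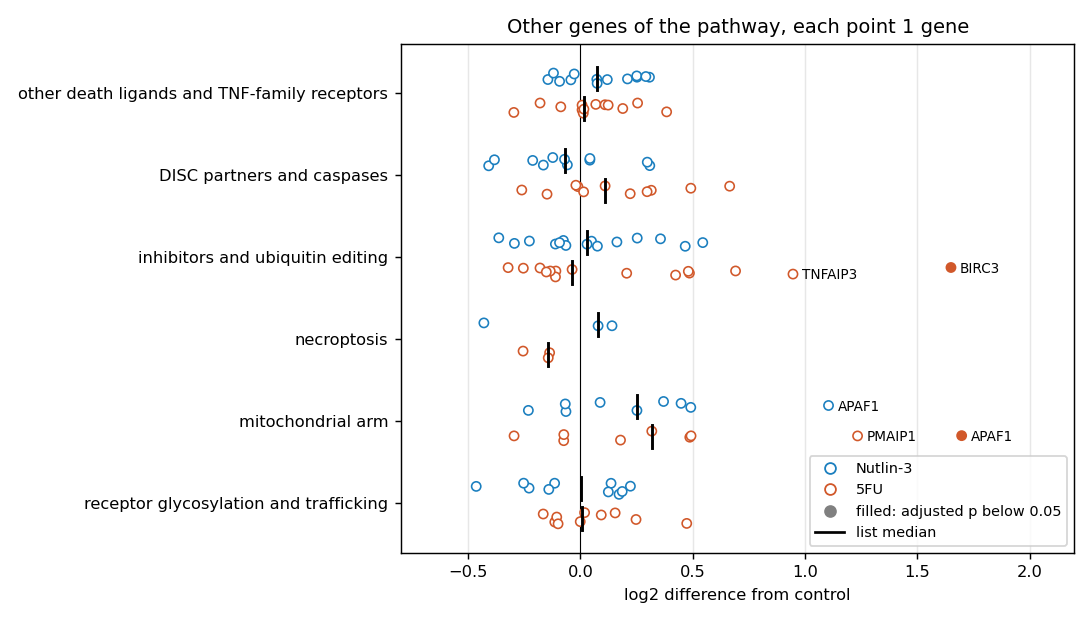
Log2 difference from control (x axis) of the other genes of the pathway, grouped in 6 lists (rows), in blue for Nutlin-3 and orange for 5FU; each point is 1 gene, filled points had an adjusted p below 0.05 and black bars are list medians. The filled points are BIRC3 and APAF1 after 5FU, and the medians of the 6 lists lie between -0.14 and 0.32.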

How the data were processed

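RNA of 6 HCT116 samples was measured on Human Exon 1.0 ST arrays, 2 per group. The authors deposited log2 values for 1411399 probe sets, normalized with RMA per the submitters' processing notes, which give no version; RMA corrects the background, forces the arrays to 1 distribution and summarises probes. A depth does not exist for arrays, and their number limits the precision. The labels name PicoPure for RNA extraction where the design text of the series names RNeasy.

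Gene names came from the platform's annotation. Of the probe sets, 357604 had 1 symbol, 15322 had several and were left out, and 1038473 had none. Of 19560 symbols, 16472 were current in RefSeq (GRCh38.p14), 2966 were updated and 122 were kept. Probe sets with a mean over the 6 arrays above 4.73 were used, a gene needed at least 2, and its value was their mean. Limma 3.58.1 (R 4.3.3) was fitted to 17841 genes, and separately to 705699 probe sets, with the 3 groups in 1 model, 3 residual degrees of freedom and no block. P-values were Benjamini-Hochberg adjusted over all genes or probe sets, with a threshold of 0.05. The fit was tested on 20 simulated data sets, with noise drawn independently for each array at each gene's residual SD. For Nutlin-3 against control it found 45.2% of simulated 2-fold and 83.35% of simulated 4-fold changes, so many 2-fold changes could be missed. In the real arrays deviations were correlated, as given below, so these shares may not carry over.

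The members and lists were chosen with earlier results of these data known. Named are all 9 members, called genes of each list, each member's neighbours, its probe sets with the largest and smallest difference, CDKN1A and MDM2, and the 5 genes nearest in profile to FAS and to TNFRSF10B. Other genes named from the lists were not called and were picked after their values were seen. Alternatives left out each array, added the replicate number as a block, changed the filter, the summary over probe sets, the scaling, the variance model and the samples in the fit. The listed genes that were not measured are not reported here.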

Additional observations from a re-analysis of the deposited data

How the results depend on the processing

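With 2 arrays a group and 3 residual degrees of freedom, counts of calls moved more than the differences. Of 378 values of single members under the alternatives, 307 kept their direction and side of the threshold, 48 lost the call, 10 gained it and 13 changed sign. These alternatives include the crossed pairing below, chosen after seeing the data, which gave most of the gained calls. Leaving out 1 array gave 5 to 149 genes called for Nutlin-3, 1 to 63 for 5FU and 3 to 104 between drugs, in place of 217, 80 and 113. Members called were then 0 to 1, 0 to 2 and 0, in place of 3, 3 and 0, and probe sets called were 0, 0 to 1 and 0 to 1, in place of 0, 0 and 10. The lowest counts of genes came without control replicate 1 for Nutlin-3, without either 5FU array for 5FU, and without 5FU replicate 2 between drugs. Each such fit has 1 array left in a group, so fewer calls alone do not mark out the array left out. Why the counts differed between the arrays left out was not tested.

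With the replicate number as a block, limma called 2, 1 and 0 genes, 0 members in each comparison and 0 probe sets between drugs. Same-numbered arrays deviated from their group means with correlations of -0.56 (control and Nutlin-3), -0.52 (control and 5FU) and 0.63 (Nutlin-3 and 5FU), so the numbers were not taken to pair the samples. A crossed pairing, with the control numbers exchanged and chosen after seeing the data, called 1788, 1882 and 2821 genes and 6, 6 and 3 members.

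With probe sets above the upper quartile, 380, 151 and 234 genes were called. With no filter 69 were called between drugs. With the median over probe sets, 39 genes were called for 5FU and 69 between drugs, with 1 member for Nutlin-3 and 0 for 5FU. With arrays centred on their medians, 127, 14 and 37 genes were called, 1 member for each drug and 0 probe sets between drugs. With only the 2 groups compared, 1 member was called for Nutlin-3. Trend and robust variances called 2696, 829 and 1606 probe sets.

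Only TNFSF10 and TNFRSF1A changed sign, from differences near 0 except that of TNFSF10 between drugs, which had been 0.25. TNFSF10 after Nutlin-3 was 0.0921 with no filter, 0.0358 above the upper quartile, 0.25 with the median and -0.21 to 0.19 leaving out 1 array; between drugs it was -0.0358 with no filter and -0.0643 with the median. Leaving out 1 array, TNFRSF1A was -0.10 to 0.16 after Nutlin-3, -0.142 to 0.0748 after 5FU and -0.197 to 0.0620 between drugs.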
